A study of Mus musculus with 8 samples.

Results

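The genes described here are the 10 genes that make, load and control MHC class II molecules in mouse B cells: the chain genes H2-Aa, H2-Ab1 and H2-Eb1, the invariant chain gene Cd74, the transactivator gene Ciita, the peptide exchange genes H2-DMa, H2-DMb1 and H2-DMb2, and the exchange inhibitor genes H2-Oa and H2-Ob. They were chosen by name, and each symbol matched 1 identifier in a deposited table of 26589 genes. All 10 stood above 1 FPKM (reads scaled to exon length and to the total of the library) in every library, so all 10 were tested.

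The study sequenced RNA from 8 bulk libraries of splenic B cells of IL-10-eGFP Tiger mice, reporter animals whose cells fluoresce green when they transcribe Il10. Purified B cells of both groups had been cultured for 48 h with lipopolysaccharide (LPS, a bacterial ligand of Toll-like receptor 4) at 3 µg/ml and were then sorted into IL-10+ cells (4 libraries) and IL-10- cells (4 libraries). A label that calls the samples untreated stands against the protocols, which were followed. The labels do not give the animals' age or sex, whether animals were pooled, or whether a replicate number marks 1 mouse, and the spread between libraries that the p-values rest on may therefore be technical. There was no group without LPS.

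MHC class II molecules are pairs of an α and a β chain that show peptides from endosomes to CD4+ T cells. New pairs bind the invariant chain, which guides them to endosomes and is cut there down to a short remnant in the peptide groove. H2-DM removes this remnant and lets peptides exchange, and H2-DO, made in B cells, binds H2-DM and restrains it. CIITA does not bind DNA itself. It docks on a set of proteins that sit on the X box (RFX and CREB proteins) and the Y box (NF-Y) in front of class II genes, and B cells are known to shut Ciita off when they become plasma cells.

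Both sorted groups held abundant class II RNA, and every one of the 10 genes was lower in the IL-10+ library than in the IL-10- library of the same replicate number, in all 4 numbers. A pattern of this kind in all 4 numbers was found in 40.4% of the 11329 tested genes. In the fit across all genes (limma on log2(FPKM + 1), calls at p under 0.05 after Benjamini-Hochberg adjustment) 5 of the 10 fell and none rose. The background of genes called lower was 9.18%, and of genes called higher 10.6%. The genes that fell were Ciita, H2-DMa, H2-DMb1, H2-DMb2 and H2-Oa, which stood 1.80-fold to 2.71-fold lower in IL-10+ cells. The chain genes H2-Aa, H2-Ab1 and H2-Eb1, Cd74 and H2-Ob did not pass in this fit, which does not use the replicate number. Their means were 1.23-fold to 1.70-fold lower.

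The median log2 change of the 10 genes was -0.76, against -0.06 over all tested genes. Libraries that share a replicate number varied in parallel. With the number as a block in the fit all 10 genes fell and none rose, where the backgrounds were 33.3% lower and 20.4% higher. Leaving out a single library left 2 to 7 of the 10 called without the block, where 607 to 954 of all tested genes were called lower. The count of the 10 was 2 without IL-10+ replicate 3 or IL-10- replicate 2, and 3 without IL-10+ replicate 4. It was also 2 when no filter on low values was used, where 828 of a larger set of genes were called lower. Bulk libraries cannot tell fewer cells of a type from less RNA per cell.

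**Figure D1:**
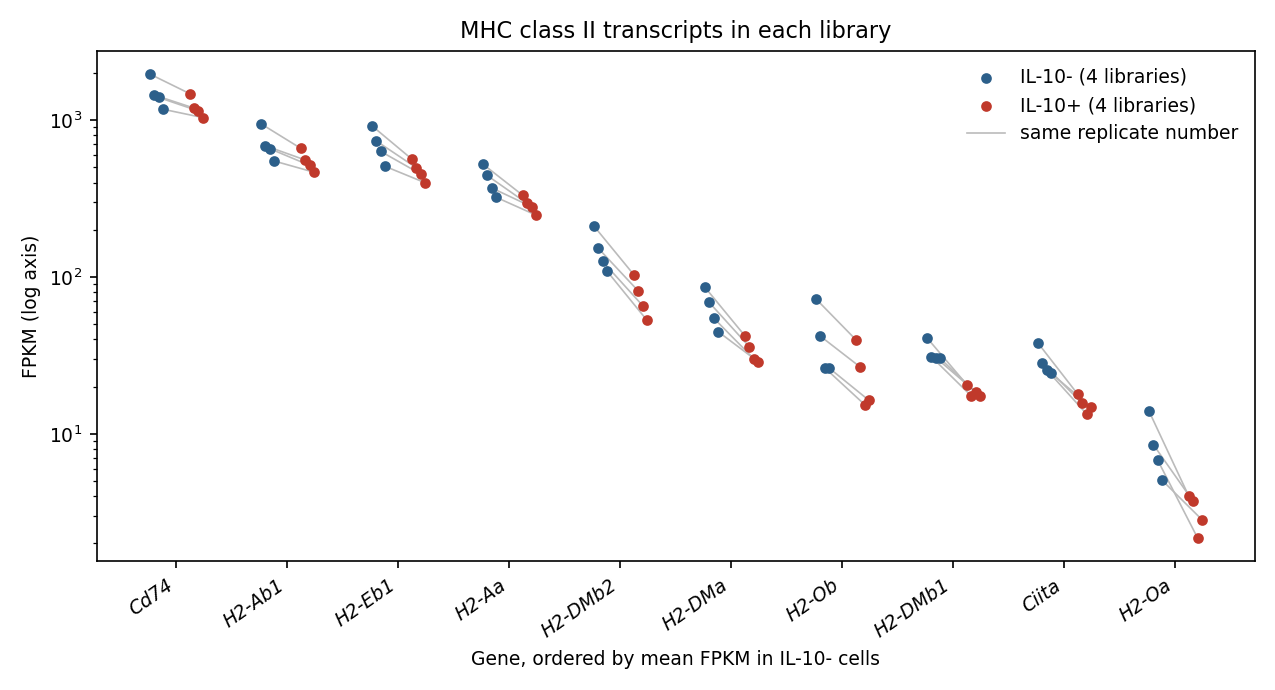
FPKM (vertical log axis) of each gene in the 4 IL-10- and the 4 IL-10+ libraries, with a grey line joining libraries of the same replicate number. Every line slopes down toward IL-10+, and the steps are smaller for Cd74 (1.23-fold between the group means) than for H2-Oa (2.71-fold).

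The promoters are shown first because in 4 of these genes a search matched the X and Y boxes through which CIITA acts. RefSeq promoters (GRCm38.p6, 250 bases before to 50 bases after the start of transcription) were given for 7 of the 10 genes; H2-Ab1, Cd74 and Ciita had none in the table. An X box was searched by its consensus with up to 1 mismatch and a Y box as GATTGG, on both strands. The stretches read 5′ to 3′ on the strand of the gene, and capitals mark the boxes, X first.
H2-DMb1 (chr17:34153083-34153144, + strand): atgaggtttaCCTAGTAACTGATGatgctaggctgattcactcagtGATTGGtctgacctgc
H2-DMb2 (chr17:34145112-34145173, + strand): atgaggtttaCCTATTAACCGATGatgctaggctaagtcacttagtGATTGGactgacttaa
H2-Ob (chr17:34238804-34238862, + strand): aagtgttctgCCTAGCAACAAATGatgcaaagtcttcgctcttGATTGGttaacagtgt
H2-Eb1 (chr17:34305762-34305822, + strand): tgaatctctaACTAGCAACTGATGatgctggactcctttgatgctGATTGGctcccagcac

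In these 4 promoters the boxes lay in the same order and 19 to 22 bases apart, with the Y box starting 58 to 91 bases before the start of transcription. H2-DMb1 matched the X box consensus without a mismatch, and the other 3 with 1 mismatch. Of 32851 promoters of the same length, 1.97% held such an X box, 16.1% a Y box on either strand, and 10 (0.0304%) an X box followed by a Y box within 30 bases.

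H2-Aa, H2-Oa and the second of the H2-DMa promoters held a Y box with no X box by this search, and the first H2-DMa promoter held neither. For H2-Aa and H2-Oa the 60 bases before the Y box are shown for comparison, with the Y box in capitals.
H2-Aa (chr17:34287857-34287932, - strand): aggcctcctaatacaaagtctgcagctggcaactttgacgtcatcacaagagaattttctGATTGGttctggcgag
H2-Oa (chr17:34092275-34092350, + strand): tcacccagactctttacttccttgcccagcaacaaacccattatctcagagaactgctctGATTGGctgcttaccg
A match is a description of letters and no measurement of binding. An X box further from the consensus than 1 mismatch would be missed, so no match does not mean no box. The genes with both boxes had log2 changes of -0.97 (H2-DMb2), -0.81 (H2-DMb1), -0.72 (H2-Ob) and -0.52 (H2-Eb1), and those without an X box match had -1.14 (H2-Oa), -0.85 (H2-DMa) and -0.51 (H2-Aa). The 2 ranges overlapped.

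Ciita, the gene of the transactivator (ENSMUSG00000022504, chromosome 16, 10480059 to 10528418 of GRCm38), stood at 38.0, 28.3, 25.6 and 24.3 FPKM in IL-10- replicates 1 to 4 and at 17.9, 15.6, 13.4 and 14.8 FPKM in IL-10+ replicates 1 to 4. The groups did not overlap, as in 13.0% of tested genes in this direction and 12.2% in the other. The means were 29.1 ± 6.22 and 15.4 ± 1.88 FPKM (SD, n = 4), and the log2 change was -0.86 (SE 0.145, limma adjusted p = 0.00357). Permuting the 8 libraries exactly (two-sided) gave p = 0.0286, which no 4 against 4 design can go below. Between 3679 and 10156 reads per library lay behind these values. Ciita kept its call in all 21 alternative fits. Its last exons overlap Dexi on the opposite strand by annotation, and Dexi, at 4.06 against 6.42 FPKM, also fell (log2 change -0.55, adjusted p = 0.00379). The strand setting of the counting is not stated, and reads of the overlap cannot be told apart.

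The chain genes were the most abundant after Cd74. H2-Ab1, the β chain of I-A (ENSMUSG00000073421, chromosome 17, 34257689 to 34269419), stood at 951, 688, 659 and 549 FPKM in IL-10- and 662, 557, 515 and 466 FPKM in IL-10+ replicates 1 to 4. Within each group replicate 1 was the highest and replicate 4 the lowest, and IL-10+ replicate 1 lay above IL-10- replicates 3 and 4, so the groups overlapped. The log2 change of -0.35 did not pass (SE 0.172, limma adjusted p = 0.194; 0.00278 with the block).

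H2-Aa, the α chain of I-A (ENSMUSG00000036594, chromosome 17, 34282744 to 34287823), stood at 526, 444, 369.9 and 322 FPKM in IL-10- and 332, 294, 281 and 248 FPKM in IL-10+ replicates 1 to 4. Only the highest IL-10+ value and the lowest IL-10- value crossed. The log2 change was -0.51 (SE 0.156, limma adjusted p = 0.0528; 0.00107 with the block). H2-Aa passed without the block where 1 library was left out in 2 of 8 fits, with genes of at least 5 FPKM only (adjusted p = 0.0476) and within replicates 1 and 2 (adjusted p = 0.0489).

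H2-Eb1, the β chain of I-E (ENSMUSG00000060586, chromosome 17, 34305867 to 34316674), stood at 923, 738, 633 and 508 FPKM in IL-10- and 566, 498, 454 and 399 FPKM in IL-10+ replicates 1 to 4. Here too IL-10+ replicate 1 lay above IL-10- replicate 4 alone. The log2 change was -0.52 (SE 0.183, limma adjusted p = 0.0812; 0.00121 with the block).

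The α chain that pairs with H2-Eb1 comes from H2-Ea, annotated as the polymorphic pseudogene H2-Ea-ps, and it was looked up after the other values were seen. H2-Ea-ps had 0 to 15 reads per library, at 0 to 0.505 FPKM, beside 21727 to 50258 reads of H2-Eb1. Mouse strains of the b haplotype are known to lack transcription of this α chain. The labels do not give the haplotype of these mice.

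Cd74, the invariant chain gene (ENSMUSG00000024610, chromosome 18), was the most abundant of the 10 in every library. Its values were 1970.5, 1447, 1397 and 1174 FPKM in IL-10- and 1477, 1193, 1144 and 1038 FPKM in IL-10+ replicates 1 to 4, which overlap widely. The log2 change of -0.29 did not pass (SE 0.165, limma adjusted p = 0.266; 0.00389 with the block). Cd74 had the smallest change of the 10 genes.

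In both groups the mean levels ran in the same order, from Cd74 through H2-Ab1, H2-Eb1, H2-Aa, H2-DMb2, H2-DMa, H2-Ob, H2-DMb1 and Ciita to H2-Oa. H2-Ab1 and H2-Eb1 overlapped in both groups, as did H2-DMa with H2-Ob, H2-Ob with H2-DMb1 and H2-DMb1 with Ciita, so their order is not resolved beyond the spread between libraries. H2-Aa overlapped H2-Eb1 in IL-10- cells. FPKM divide by the length of all annotated exons, which is 3798 bases for H2-Aa and 2568 for H2-Ab1, and the order of these chains depends on that length. Cd74 and the 3 chain genes made up 90.4% to 91.9% of the summed FPKM of the 10 genes in IL-10- and 93.0% to 94.3% in IL-10+ libraries. All 10 together took 0.854% to 1.48% of all FPKM in IL-10- and 0.645% to 0.881% in IL-10+ libraries, where only IL-10- replicate 4 lay below IL-10+ replicate 1.

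The H2-DM genes, which encode the peptide exchange factor, all fell. H2-DMa, its α chain (ENSMUSG00000037649, chromosome 17, 34119541 to 34139101), stood at 86.2, 68.8, 54.8 and 44.9 FPKM in IL-10- and 42.3, 36.0, 30.2 and 28.8 FPKM in IL-10+ replicates 1 to 4. The groups did not overlap, although IL-10- replicate 4 and IL-10+ replicate 1 lay close. The means were 63.7 ± 17.97 and 34.3 ± 6.15 FPKM (SD, n = 4), with a log2 change of -0.85 (SE 0.203, limma adjusted p = 0.0197). The call was lost when replicate 3 or 4 of IL-10+ (adjusted p = 0.0594 and 0.0550) or replicate 2 of IL-10- (0.0585) was left out, and with no filter on low values (0.0519). By annotation its exons overlap those of Brd2 on the opposite strand, which stood at 79.3 against 72.8 FPKM and was not called (adjusted p = 0.449).

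H2-DMb2, a β chain of H2-DM (ENSMUSG00000037548, chromosome 17, 34143307 to 34151555), stood at 212, 153, 126 and 109 FPKM in IL-10- and 104, 81.6, 65.7 and 52.9 FPKM in IL-10+ replicates 1 to 4. The lowest IL-10- value lay just above the highest IL-10+ value. The change was nearly the same in each replicate number, with differences in log2(FPKM + 1) of -1.03, -0.90, -0.92 and -1.03. The fitted log2 change was -0.97 (SE 0.249, limma adjusted p = 0.0265; SE 0.0338 and adjusted p = 5.68e-05 with the block). Without the block the call was lost when replicate 2 of IL-10- (adjusted p = 0.0690) or replicate 2, 3 or 4 of IL-10+ (0.0517, 0.0740 and 0.0619) was left out, within replicates 1 and 2 (0.0540) and with no filter on low values (0.0687).

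H2-DMb1, the other β chain gene (ENSMUSG00000079547, chromosome 17, 34153072 to 34160230), stood at 41.1, 31.1, 30.6 and 30.2 FPKM in IL-10- and 20.6, 17.5, 18.5 and 17.3 FPKM in IL-10+ replicates 1 to 4. IL-10- replicate 1 stood apart above the other IL-10- libraries, and all 4 were well above the IL-10+ libraries. The log2 change was -0.81 (SE 0.109, limma adjusted p = 0.00112), and it kept its call in all 21 alternatives.

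The 2 β chain genes are close copies. Their longest protein-coding transcripts were 77.4% identical over 1476 aligned positions, and 22.7% of the 50-base windows of H2-DMb1 occur in H2-DMb2. The handling of reads from such windows is not stated, so the split between both genes is uncertain. H2-DMb2 stood 3.60 to 5.16 times above H2-DMb1 in IL-10- and 3.05 to 5.03 times in IL-10+ libraries.

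H2-DO, the inhibitor of H2-DM, had 1 chain gene called and 1 not without the block, and 2 called with it. H2-Oa, its α chain (ENSMUSG00000024334, chromosome 17, 34092340 to 34095234), was the least abundant of the 10, at 14.02, 8.54, 6.79 and 5.05 FPKM in IL-10- and 4.002, 3.70, 2.16 and 2.83 FPKM in IL-10+ replicates 1 to 4. The groups did not overlap, and the reads numbered 213 to 553 and 88 to 154 per library. The means were 8.60 ± 3.89 and 3.17 ± 0.839 FPKM (SD, n = 4), 2.71-fold apart, which was the largest fold of the 10 genes. The log2 change was -1.14 (SE 0.269, limma adjusted p = 0.0180), and the scale of FPKM + 1 understates it. With a pseudocount of 0.1 it was -1.35. The call ended without IL-10+ replicate 3 (adjusted p = 0.0534), without IL-10- replicate 2 (0.0511) and with no filter on low values (0.0510). The antisense gene BC051537, whose exons overlap H2-Oa, stood at 0.0858 FPKM or less in every library.

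H2-Ob, the β chain of H2-DO (ENSMUSG00000041538, chromosome 17, 34238903 to 34254414), stood at 72.7, 42.0, 26.4 and 26.3 FPKM in IL-10- and 39.9, 26.7, 15.4 and 16.3 FPKM in IL-10+ replicates 1 to 4. Replicates 1 and 2 were higher than 3 and 4 in both groups, and the groups overlapped. The log2 change was -0.72 (SE 0.389, limma adjusted p = 0.241), while the differences within the replicate numbers lay between -0.85 and -0.64 (SE 0.0428, adjusted p = 0.000138 with the block). H2-Ob passed within replicates 3 and 4 alone without the block (adjusted p = 0.00319), and not within 1 and 2 (adjusted p = 0.231).

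**Figure D2:**
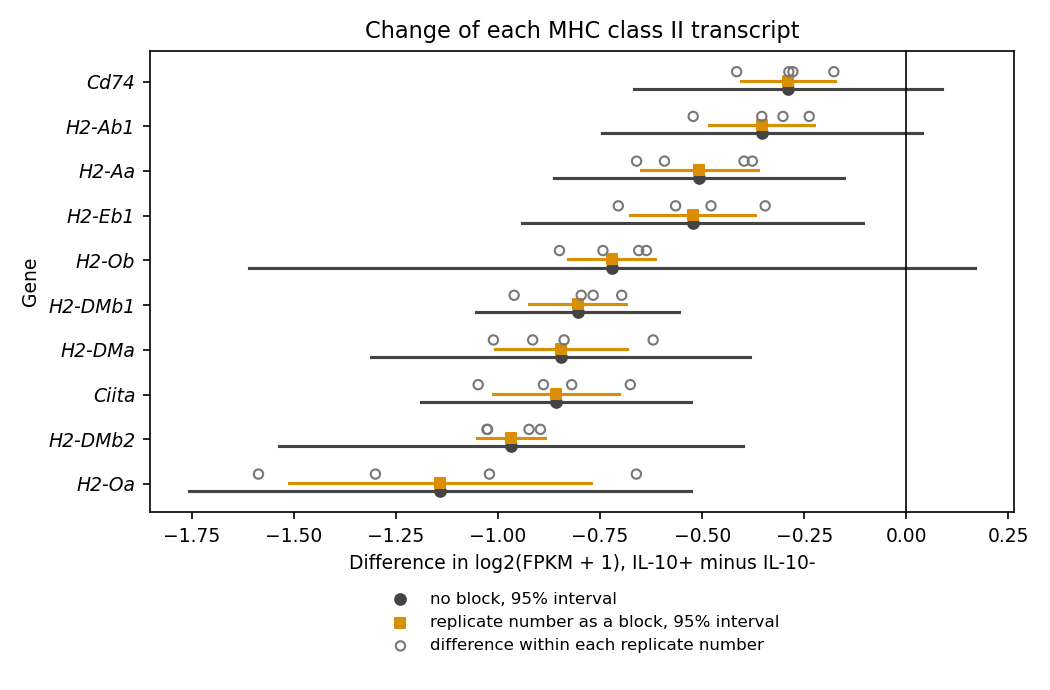
Difference in log2(FPKM + 1), IL-10+ minus IL-10-, for each gene (horizontal axis). Dark circles and lines give the fit without a block and its 95% interval, orange squares and lines the fit with the replicate number as a block, and open circles the differences within the 4 replicate numbers. All open circles lie below 0, from -0.18 for Cd74 to -1.59 for H2-Oa, and the blocked intervals exclude 0 for every gene.

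Whether the change differed between replicates 1 and 2 and replicates 3 and 4 was looked at without pairing libraries of the same number. The variation that such libraries share stayed in the error of this test. It could therefore miss a difference, and it does not show that the change was the same. In the limma interaction term 0 of the 10 genes passed (0 at an unadjusted p under 0.05), and 0 of the 11329 tested genes passed (0.00%; 315 at an unadjusted p under 0.05). With both libraries of replicate 1 left out, an alternative chosen after seeing the data, the count of called members was again 5, and 10 with the block. Of all 11329 tested genes, 910 were called lower in that fit, and 3166 with the block.

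Ratios within a library do not depend on how libraries are scaled, and they are given without a test. Against H2-Ab1, Ciita stood at 0.0389 to 0.0442 in IL-10- and 0.0259 to 0.0318 in IL-10+ libraries, without overlap. H2-DMa against H2-Ab1 stood at 0.0817 to 0.1001 in IL-10- and 0.0586 to 0.0646 in IL-10+ libraries, also without overlap. The transactivator and the exchange factor were thus lower relative to the I-A β chain in every IL-10+ library, and not only relative to all RNA.

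Between the chain genes themselves the ratios moved little. Cd74 stood at 2.07 to 2.14 times H2-Ab1 in IL-10- and 2.14 to 2.23 times in IL-10+ libraries. H2-Eb1 stood at 0.924 to 1.07 times H2-Ab1 in IL-10- and 0.855 to 0.894 times in IL-10+ libraries, and H2-Aa at 0.553 to 0.646 and 0.502 to 0.545 times. None of these 3 ratios overlapped between the groups. For Cd74 the groups nearly touched, at 2.137 for the highest IL-10- and 2.140 for the lowest IL-10+ library. The group means of H2-Eb1 to H2-Ab1 were 0.982 (IL-10-) and 0.872 (IL-10+).

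The ratio of H2-DM to H2-DO went different ways for the 2 chains. H2-DMa stood at 6.15 to 8.88 times H2-Oa in IL-10- and 9.73 to 13.96 times in IL-10+ libraries, without overlap. The summed H2-DMb genes stood at 3.48 to 5.93 times H2-Ob in IL-10- and 3.11 to 5.49 times in IL-10+ libraries, which overlap, and in each replicate number the IL-10+ ratio was the lower one. H2-Oa against H2-Ob was lower in every IL-10+ library, at 0.1004 to 0.173 against 0.192 to 0.257.

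**Figure D3:**
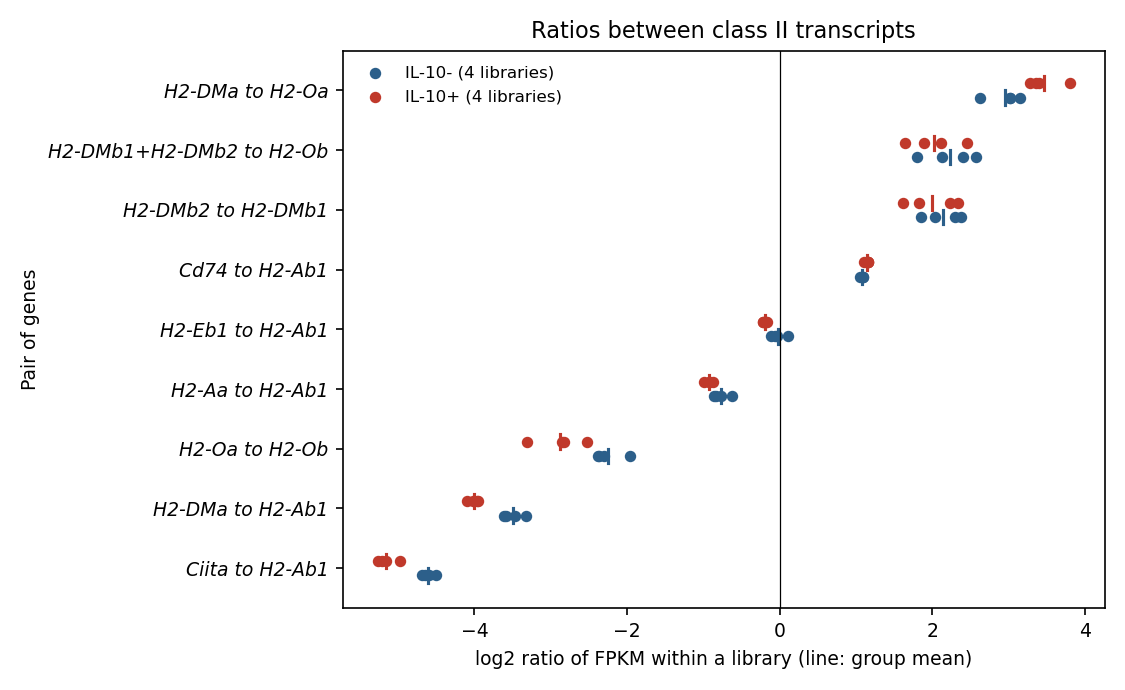
log2 ratio of FPKM between pairs of genes within each library (horizontal axis), with 4 IL-10- libraries in blue, 4 IL-10+ libraries in red and a line at each group mean. The groups separate for Ciita to H2-Ab1 (means -4.61 and -5.15) and overlap for the summed H2-DMb genes to H2-Ob (2.22 and 2.02).

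Among 26 genes that regulate Ciita or sit on class II promoters, 6 fell and 3 rose, with a median log2 change of -0.07 (11 and 6 with the block). The backgrounds of 9.18% lower and 10.6% higher, or 33.3% and 20.4% with the block, hold for this list and the next. The counts of regulators called higher, without and with the block, are near the background. The largest rise was Prdm1, whose product Blimp-1 is a known repressor of Ciita, at 49.7 to 53.4 FPKM in IL-10+ and 4.22 to 9.56 FPKM in IL-10- libraries (log2 change 2.78, limma adjusted p = 5.03e-05). Irf4, a factor of activated B cells and plasma cells, rose by 1.27. Bach2, which represses Prdm1, fell by 1.19 on the log2 scale, and the ETS factor Spib fell by 1.16.

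The proteins of the X and Y boxes were singled out after their values were seen. Rfx5, the DNA-binding subunit of RFX, stood at 6.98 to 11.1 FPKM in IL-10- and 4.34 to 6.40 FPKM in IL-10+ libraries and fell (log2 change -0.65, limma adjusted p = 0.0362; 0.000201 with the block). Its partners Rfxap and Rfxank did not pass, at log2 changes of 0.11 and 0.14. Creb1 (log2 change -0.55, adjusted p = 0.0476) and the NF-Y subunit gene Nfya (-0.33, adjusted p = 0.0248) fell, while Nfyb (-0.10) and Nfyc (0.03) did not pass. The calls of Rfx5, Creb1 and Nfya ended in 4, 6 and 5 of the 8 fits without 1 library, with adjusted p up to 0.0979, 0.116 and 0.0756, and that of Creb1 also under both other scalings (0.0591 and 0.0680).

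The list of endosomal processing holds proteases and other genes, such as Cst3, Lamp1, Lamp2 and Tfeb. Of its 14 genes, 12 passed the filter and were tested. Of these, 6 rose and 2 fell, with a median log2 change of 0.17 (6 and 4 with the block). The 4 lower genes with the block are near the background. The 6 that rose include Cst3 (log2 change 0.47) and Lamp2 (0.40), which are not proteases. Ctsd, the aspartic protease cathepsin D, stood at 11.05 to 14.7 FPKM in IL-10+ and 5.76 to 6.48 FPKM in IL-10- libraries (log2 change 0.90, limma adjusted p = 0.000185). Ctsz rose by 0.59 and Lgmn, an asparagine-specific protease, by 0.52 (adjusted p = 0.0106; 0.0576 within replicates 3 and 4). Ctsh fell by 0.72 on the log2 scale (adjusted p = 0.0162; 0.0508 without IL-10+ replicate 3). Ctss, the cathepsin that makes the last cut of the invariant chain in B cells, was singled out after its values were seen and stood at 108 to 154 FPKM in IL-10- and 116 to 140.1 FPKM in IL-10+ libraries and was not called (adjusted p = 0.834).

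Of 19 genes of class II turnover and transport 17 were tested, and 6 fell and 2 rose, with a median log2 change of -0.03 (6 and 5 with the block). The backgrounds were 9.18% lower and 10.6% higher, and 33.3% and 20.4% with the block, so the 6 lower genes with the block are near the background. March1, the ubiquitin ligase that sends class II to degradation, stood at 1.87 to 3.30 FPKM in IL-10- and 0.601 to 1.22 FPKM in IL-10+ libraries and fell (log2 change -0.91, limma adjusted p = 0.00510; 0.110 within replicates 1 and 2). It passed the filter through the IL-10- libraries, since 3 of the 4 IL-10+ libraries lay below 1 FPKM. March8, a related ligase that was looked at after its values were seen, stood at 0.745 to 0.902 FPKM in IL-10+ and 0.308 to 0.443 FPKM in IL-10- libraries, higher in IL-10+ without overlap, and was not tested because it lay below the filter. Cd83, which shields class II from March1, fell by 1.39 on the log2 scale, from 94.4 to 144.4 FPKM in IL-10- to 29.98 to 65.9 FPKM in IL-10+ libraries. Of the tetraspanins, membrane proteins found with class II, Cd37 fell by 0.90 and Cd9 rose by 1.93 on the log2 scale. The call of Cd37 ended in 4 of the 8 fits without 1 library (adjusted p up to 0.0646).

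Of the 10 genes, 8 lie on chromosome 17, where the class II region from H2-Oa to H2-Eb2 spans 249 kb. The region holds 6 other protein-coding genes. Without the block 0 of them were called by limma (0 at an unadjusted p under 0.05), and with it 1 was higher and 2 lower. Over all tested genes 9.18% were called lower and 10.6% higher, and 33.3% and 20.4% with the block. The counts in these 6 genes are near those shares. Brd2, a chromatin reader on the strand opposite H2-DMa, reaches from between H2-Oa and H2-DMa into H2-DMa. Psmb9, Tap1, Psmb8 and Tap2, which make and carry peptides for MHC class I, lie between H2-DMb1 and H2-Ob. Tap1, at the highest mean level of these, stood at 64.1 to 95.1 FPKM in IL-10- and 74.0 to 96.3 FPKM in IL-10+ libraries (log2 change 0.13, adjusted p = 0.593). H2-Eb2, a relative of H2-Eb1 singled out for its promoter, which also holds an X and a Y box, stood at 10.9 to 18.6 FPKM in IL-10- and 9.37 to 12.6 FPKM in IL-10+ libraries (log2 change -0.31, adjusted p = 0.210). The difference between the members and these neighbours was not tested.

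**Figure D4:**
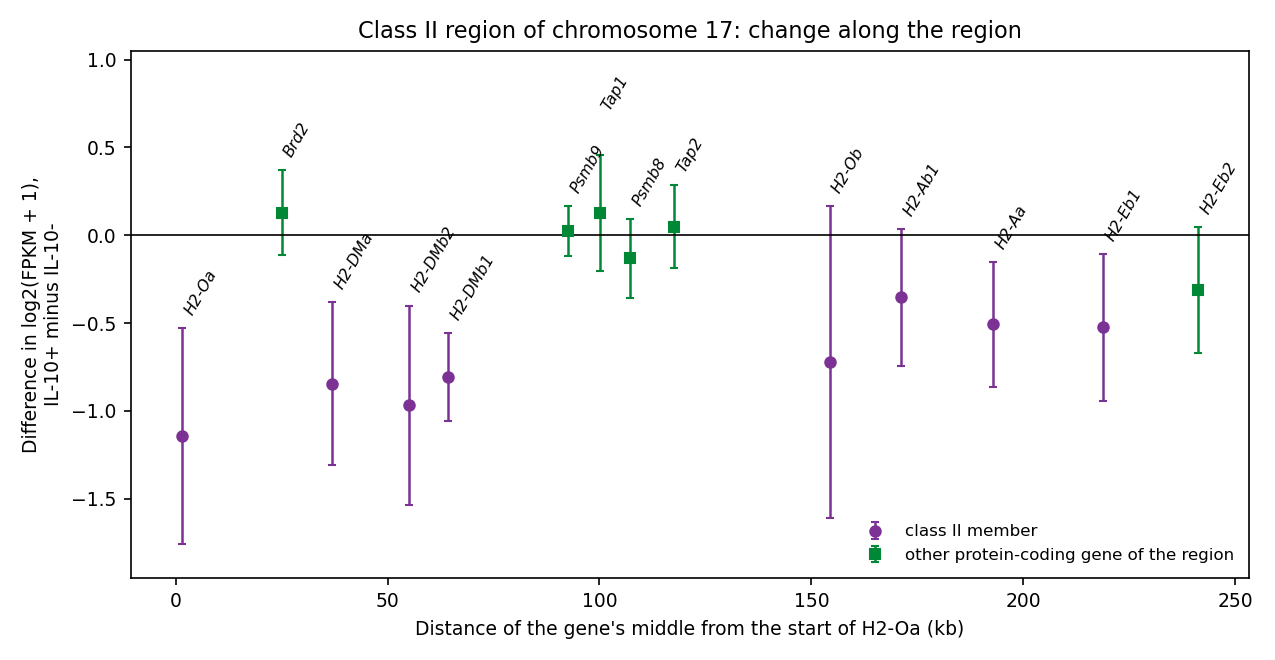
Difference in log2(FPKM + 1), IL-10+ minus IL-10- (vertical axis), with 95% intervals of the fit without a block, against the distance of each gene's middle from the start of H2-Oa in kb. The 8 members on this chromosome (circles) lie between -1.14 and -0.35. Of the 6 other protein-coding genes (squares), H2-Eb2, a relative of H2-Eb1, lies at -0.31, and the rest lie between -0.13 and 0.13.

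Over the 8 libraries the 10 genes moved together, with Pearson correlations of log2(FPKM + 1) between 0.74 (H2-DMb1 with H2-Ob) and 0.99 (H2-Ab1 with Cd74) and a median of 0.93 over 45 pairs. These values share the 2 groups and the 4 replicate numbers and are given as a description. By the same measure, the genes most like the mean of the 3 chain genes and Cd74 were Arhgef1 (0.98), Lrch1 (0.98), Slc4a8 (0.98), Satb1 (0.98), a chromatin organiser, and Rabep2 (0.98). None of these 5 was called without the block (limma adjusted p 0.143 to 0.178), and all 5 fell with it. With the block 33.3% of all tested genes were lower. The 5 genes were picked by this likeness, so their calls are not independent of those of the chain genes and Cd74.

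The labelled cell type was checked against markers. Of the sort, Il10 stood at 32.0 to 44.4 FPKM in IL-10+ and 1.28 to 4.76 FPKM in IL-10- libraries. All 8 B cell markers stood above 1 FPKM in every library, with Ms4a1 at 83.3 to 139 FPKM. Dendritic cells and macrophages also carry class II. Of 9 dendritic cell markers 6 stood below 1 FPKM in every library, Zbtb46 at 0.243 FPKM or less, and 3 stood above 1 FPKM in every library. These 3 were Ccr7 (11.5 to 61.8 FPKM in IL-10+ and 44.5 to 147 FPKM in IL-10-), Flt3 (7.45 to 11.2 and 9.49 to 14.7 FPKM) and Batf3 (1.72 to 2.17 and 1.21 to 1.61 FPKM), and none was called (adjusted p = 0.143, 0.157 and 0.0561). With the block Ccr7 and Flt3 fell and Batf3 rose. The summed level of the 9 markers was 21.6 to 75.2 FPKM in IL-10+ and 56.5 to 163.6 FPKM in IL-10- libraries, most of it from Ccr7 and Flt3.

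All 8 macrophage markers stood below 1 FPKM in every library, with a summed level of 0.433 to 1.04 FPKM in IL-10+ and 0.623 to 1.35 FPKM in IL-10- libraries. Of 7 T cell markers 5 stood below 1 FPKM in every library, Cd3e at 0.0350 FPKM or less. The T cell list summed to 2.18 to 4.37 FPKM in IL-10+ and 4.82 to 6.04 FPKM in IL-10-, and most of this was Lck. Lck, a kinase of T cells, stood at 1.53 to 2.66 FPKM in IL-10+ and 4.30 to 5.28 FPKM in IL-10- libraries and fell (log2 change -1.01, adjusted p = 0.000523). Trac was not called, at mean levels of 1.29 (IL-10+) and 0.593 FPKM (IL-10-), with an adjusted p = 0.251. Markers of NK cells, neutrophils and red cells summed to 1.36 FPKM or less. No marker was at 0 in all libraries. The marker genes named here were chosen after their values were seen.

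Most B cell markers moved in the direction of the class II genes, and the plasmablast markers in the other. Pax5, Prdm1 and Irf4 are also in the list of regulators. Of 8 B cell markers 5 fell and none rose, against 9.18% and 10.6% of all tested genes (7 fell and 1, Cd79a, rose with the block, against 33.3% and 20.4%), with a summed level of 1247 to 1585 FPKM in IL-10+ and 1464 to 2031 FPKM in IL-10- libraries. All 6 plasmablast markers rose, with a summed level of 1331 to 1357 FPKM against 315 to 442 FPKM. The part of these lists in the change of the class II genes was not tested. Immunoglobulin genes took 13.2% to 16.8% of all FPKM in IL-10+ and 3.73% to 4.73% in IL-10- libraries. With libraries scaled without immunoglobulin and mitochondrial genes, the same 5 members were called and their log2 changes lay between -1.11 and -0.77.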

How the data were processed

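The authors deposited FPKM values for 26589 genes in 8 libraries. HISAT2 2.1.0, HTSeq 0.6.0 and build mm10 are named in the submitters' processing notes. Annotation, strand setting and handling of shared reads: not given in the sources used here. Names and positions came from GENCODE M21 (GRCm38, the same build), where 26517 identifiers were found. With its exonic lengths, 93.5% to 93.6% of values above 0 gave whole reads within 0.05, at 27380384 to 29968276 reads per library.

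Groups were compared with limma 3.58.1 (R 4.3.3) on log2(FPKM + 1), with a variance trend, over 11329 genes that reached 1 FPKM in 4 or more libraries, adjusted over all of them. FPKM are not counts, so the fit was not given the read depth. Depth acts through the filter and through the spread of genes with few reads. The replicate number was an alternative block. Same-numbered libraries deviated from their group means with correlations of 0.71, 0.58, 0.62 and 0.70, so the numbers pair the libraries. This rests on the data, not on the labels. Data were simulated over these genes with effects shared by libraries of 1 number. Without the block 47.8%, 91.0% and 98.5% of genes lowered by log2 values of 0.5, 1 and 2 were called, with 1 false call. With the block these were 68.7%, 91.0% and 98.5%, with 13 false calls. With no shared effects they were 52.2%, 86.6% and 98.5% without the block (4 false calls) and 26.9%, 79.1% and 92.4% with it (7 false calls).

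Members, lists and tests were chosen with earlier results of these data known. Named are all members, up to 4 called genes with the largest change of each list, the most abundant where none was called, and genes outside this rule (Rfx5 and the other box proteins, Ctss, March8, H2-Eb2, H2-Ea-ps, overlapping genes and single markers), chosen after their values were seen. The identity of H2-DMb1 and H2-DMb2 was computed from transcripts in place of proteins. Of the ratios, H2-DMa to H2-Ab1, H2-DMb2 to H2-DMb1 and H2-Oa to H2-Ob were added later. Alternatives were pseudocount, filter, scaling, variance trend, block and libraries left out.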

Additional observations from a re-analysis of the deposited data

Results flagged for a closer look

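H2-DMb1 stood at 41.1 FPKM in IL-10- replicate 1, far above the other 3 IL-10- libraries (30.2 to 31.1 FPKM) by Dixon's criterion. This was 1 of the 20 groups of 4 libraries checked over the 10 genes, and chance marks about 1 in 20 groups. The log2 change of H2-DMb1 was -0.70 without that library (limma adjusted p = 0.000625).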

How the results depend on the processing

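Settings that alter only the filter, the variance trend or the block keep the log2 change, so they cannot change its direction. No result for the 10 genes changed direction in any of 210 comparisons with an alternative fit. In 171 of them the call stayed on its side of the threshold, in 13 it was lost (H2-DMa 4, H2-DMb2 6, H2-Oa 3) and in 26 it was gained. The number of the 10 genes called lower was 5, and it was 2 with no filter on low values and 2 to 7 when 1 library was left out. It was 10 with the replicate block, whether alone, together with either other scaling or together with leaving out replicate 1. Without the block, either other scaling and leaving out replicate 1 gave 5. Over all tested genes, 1040 were called lower and 1196 higher. With the block these were 3771 and 2312, with the block and median-of-ratios scaling 3009 and 2616, with the block and scaling without immunoglobulin and mitochondrial genes 3116 and 2550, and with the block and without replicate 1 (an alternative chosen after seeing the data) 3166 and 2045. Within replicates 1 and 2 they were 320 and 786, and without 1 library 607 to 954 and 991 to 1168. In the 4 lists around the members 14 genes were lower and 11 higher. With the block 23 and 18 were, and 22 and 21 were higher with the block and either scaling. Within replicates 1 and 2 there were 8 lower genes, and without 1 library 7 to 14 lower and 11 to 12 higher. The causes of these shifts were not tested. Depth limits the lowest gene most: H2-Oa rests on 88 to 553 reads.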
